A study of Mus musculus with 22 samples.

Results

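CD200 and its receptor family were followed through pancreatic dendritic cells (DCs) of the NOD mouse, a strain that develops autoimmune diabetes, and of the non-diabetic C57BL/6 mouse. The members are the ligand gene Cd200 and the receptor genes Cd200r1, Cd200r3 and Cd200r4, 4 of 18193 genes with a probe set of their own. They were taken as every probe set annotated to a member alone, which gave 6 of 45037 probe sets: 1448788_at for Cd200, 1422191_at and 1439703_at for Cd200r1, 1430645_at and 1453813_at for Cd200r3, and 1435313_at for Cd200r4. The family was chosen with the strain difference of Cd200r4 at steady state in view, so the strain contrast at steady state is described for the members and not tested, and the strain difference of Cd200r4 is given without a test under every condition.

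Cells were CD11c+CD8α- DCs of female mice aged 5 weeks, sorted by flow cytometry after a magnetic enrichment for CD45, the common leukocyte antigen, and each array holds RNA from 1 pool of 10 pancreases. The methods name the mice as C57BL/6J and NOD/ShiLtJ, and no allele, transgene or agent is named beyond the strain and the treatment. At steady state the sorted cells were lysed without treatment, on 4 C57BL/6 and 3 NOD arrays. The cultured cells were kept for 18 h with PBS, the vehicle (4 C57BL/6 and 4 NOD arrays), or with LPS, a bacterial cell wall component that triggers Toll-like receptor 4 (3 C57BL/6 and 4 NOD arrays). The series text describes the culture as a separate experiment and the methods as the other part of the sorted cells, so culture and experiment cannot be told apart. The amplified RNA was measured on 22 Affymetrix Mouse Genome 430 2.0 arrays, and values are log2 expression values normalised by RMA, which summarises the probes of a probe set. Over the 22 arrays the medians of all probe sets lay between 7.633 and 7.684 and the lower quartiles between 6.028 and 6.361. Arrays of a group correlated at 0.9837 or more, and no pair of arrays was identical. Of 13 markers of CD8α- DCs, 12 were measured and none fell below the lower quartile in any group. Their mean per array ran from 11.93 to 12.19 at steady state and from 10.19 to 10.85 in culture. The measured markers of other DCs, macrophages and monocytes, T, B and NK cells and acinar cells did not fall below it either. At steady state the mean was 12.39 to 13.03 for macrophages and monocytes and 12.89 to 13.87 for acinar cells. These are means over different probe sets, without detection calls, so they do not rank cell types or decide which cells were present. The methods report a high purity of the sorted cells on re-evaluation. The number of arrays limits the precision.

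CD200 is a membrane glycoprotein of the immunoglobulin superfamily found on B cells, activated T cells, endothelium, neurons and some DCs. It binds CD200R1, an inhibitory receptor of myeloid cells that recruits the adaptor Dok2, and then Dok1 and RasGAP, to its cytoplasmic tail. The related receptors encoded by Cd200r3 and Cd200r4 have short tails and pair with the activating adaptor DAP12 (gene Tyrobp), and the product of Cd200r3 is known from mast cells and basophils.

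The receptor genes lie side by side on mouse chromosome 16, in the order Cd200r1, Cd200r4, Cd200r2 and Cd200r3, with Cd200 a few genes further on. No probe set used here is annotated to Cd200r2. RefSeq promoter windows of build GRCm38.p6 were matched for 3 of the 4 members (not Cd200r1), and the 250 bases before each start are printed 5′ to 3′. That of Cd200 is shown because its transcript had the largest rise of the family in culture. Those of Cd200r4 and Cd200r3 are shown because these neighbouring genes are related and their windows share a long run of bases.
Cd200 (chr16:45409054-45409303, minus strand): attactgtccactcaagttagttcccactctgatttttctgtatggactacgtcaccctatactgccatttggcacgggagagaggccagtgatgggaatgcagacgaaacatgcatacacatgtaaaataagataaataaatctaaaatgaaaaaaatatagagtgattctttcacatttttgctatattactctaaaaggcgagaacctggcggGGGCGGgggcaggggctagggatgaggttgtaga
Cd200r4 (chr16:44820478-44820727, plus strand): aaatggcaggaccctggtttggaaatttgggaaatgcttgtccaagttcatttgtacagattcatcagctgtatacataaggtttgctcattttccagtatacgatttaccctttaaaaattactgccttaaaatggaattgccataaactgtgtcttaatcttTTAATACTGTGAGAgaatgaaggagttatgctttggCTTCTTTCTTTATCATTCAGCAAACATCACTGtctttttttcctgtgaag
Cd200r3 (chr16:44943428-44943677, plus strand): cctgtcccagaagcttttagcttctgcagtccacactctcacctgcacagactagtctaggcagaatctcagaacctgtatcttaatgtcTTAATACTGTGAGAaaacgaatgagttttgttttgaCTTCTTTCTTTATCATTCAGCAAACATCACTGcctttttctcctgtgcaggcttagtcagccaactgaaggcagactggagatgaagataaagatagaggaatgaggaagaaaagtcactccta
In the Cd200 window the capitals mark a GC box, GGGCGG, whose first base lies 34 bases before the start. In the receptor windows they mark every exact run of at least 12 bases shared by both, 46 bases in each. The longest of these runs has 32 bases and begins 50 bases before the start of Cd200r4 and 124 bases before that of Cd200r3, and no other window among 32851 holds it. The longest run shared with the Cd200 window was 7 bases for Cd200r4 and 8 for Cd200r3. The GC box, searched on both strands, was found in the Cd200 window alone of the 3 and in 32.7% of all windows of this length. The cAMP response half-site TGACG was found once, 200 bases before the start of Cd200, and in 17.8% of all windows. None of the 3 windows held TATAAA (12.4% of all windows), the AP-1 motif TGANTCA (6.7%), the STAT motif TTCNNNGAA (7.0%) or the NF-kB motif (3.9%). A match is a run of letters and not a site shown to be bound.

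**Figure D1:**
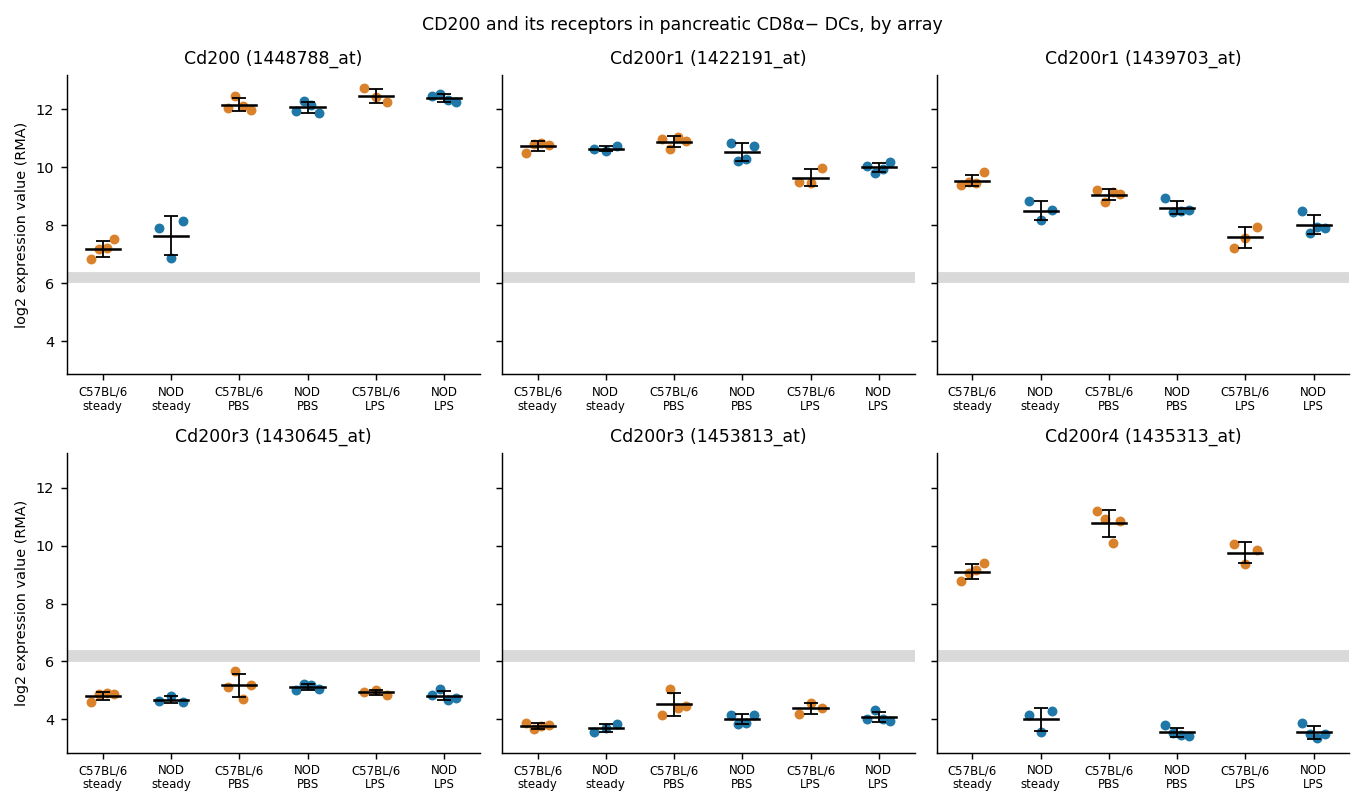
Log2 expression values (y axis) of the 6 probe sets in the 6 groups (x axis). Points are arrays (orange C57BL/6, blue NOD), lines and bars are the group mean ± SD, and the grey band spans the lower quartiles of all probe sets over the arrays (6.028 to 6.361). Cd200 is near 7 to 8 at steady state and near 12 in every cultured group, both Cd200r3 probe sets lie under the band throughout, and Cd200r4 lies above the band in all C57BL/6 arrays and below it in all NOD arrays.

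The ligand gene Cd200 was low in freshly sorted cells and high after 18 h of culture in both strains. At steady state its value in C57BL/6 was 6.82, 7.18, 7.22 and 7.51 (7.18 ± 0.28, SD, n = 4). In NOD it was 7.89, 6.87 and 8.16 (7.64 ± 0.68, n = 3), so 1 NOD array lay within the C57BL/6 range and the others above it. After culture with PBS it was 12.06, 12.47, 12.10 and 11.99 in C57BL/6 (12.16 ± 0.22, n = 4) and 11.96, 12.29, 12.14 and 11.87 in NOD (12.06 ± 0.19, n = 4). All cultured arrays stood above all steady state arrays, and Cd200 moved from brighter than 36.2 to 57.3% of the probe sets of an array to brighter than 95.3 to 97.9%. On the log2 scale Cd200 rose by 4.97 (SE 0.16, adjusted p = 3.42e-10) in C57BL/6, a 31.4-fold change, and by 4.42 (SE 0.25, adjusted p = 5.18e-08) in NOD, a 21.5-fold change. Whether the rise differed between strains was not tested.

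Culture changed most of the transcriptome, and this is the background for the family. In C57BL/6, 4 of the 6 member probe sets were higher and 1 lower after PBS culture, where 72.7% of all probe sets passed the threshold of an adjusted p under 0.1 (42.1% as higher and 30.5% as lower). In NOD, 3 were higher and 1 lower, where 67.1% passed it (37.8% and 29.3%). The median of all probe sets moved by 0.15 in C57BL/6 and 0.12 in NOD. The members' counts are near these shares and are no result about the family.

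Markers of several other cell types moved between steady state and culture. The enrichment for CD45 and the sort for CD11c were not aimed at endothelium, which carries CD200, at acinar cells or at most B cells. The methods report a high purity of the sorted cells on re-evaluation. On the arrays no measured acinar or B cell marker fell below the lower quartile in any group. How much RNA of such cells the arrays hold was not tested here. All 7 of 7 listed markers of endothelium were measured, and their mean per array was 6.76 to 7.11 at steady state and 7.83 to 8.21 in culture. Of these, 6 rose and none fell in C57BL/6, where 44.6% of genes rose, and 3 rose and none fell in NOD, where 41.6% did. Kdr, the receptor for vascular endothelial growth factor, went from a mean of 8.11 to 11.92 in C57BL/6, and Cdh5, the cadherin of endothelial junctions, from 7.04 to 8.60. The mean of 6 measured B cell markers was 8.62 to 9.69 at steady state and 8.49 to 10.76 in culture, ranges that overlap. All 4 measured acinar markers fell in both strains, with a median of -2.68 in C57BL/6 and -2.63 in NOD, and their mean per array was 12.89 to 13.87 at steady state and 8.38 to 12.65 in culture. Of 5 markers of plasmacytoid DCs, 3 rose in each strain, and 1 fell in C57BL/6 and 2 in NOD. Of 9 measured macrophage and monocyte markers, 2 rose and 6 fell in C57BL/6 and 2 rose and 5 fell in NOD. The part of these cells in the Cd200 values was not tested, and in bulk samples fewer cells of a type and less RNA per cell cannot be told apart.

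Neither strain nor LPS moved Cd200 past the threshold in the unpaired fits of the cultured cells. With LPS it was 12.73, 12.42 and 12.24 in C57BL/6 (12.46 ± 0.25, n = 3) and 12.44, 12.54, 12.31 and 12.25 in NOD (12.39 ± 0.13, n = 4), and these ranges overlap each other and those with PBS. The difference between LPS and PBS was 0.31 (SE 0.16, adjusted p = 0.567) in C57BL/6 and 0.32 (SE 0.12, adjusted p = 0.254) in NOD. The value was higher with LPS in 3 of 3 same-numbered pairs of C57BL/6 and 4 of 4 of NOD, and with the replicate number as a block the NOD difference passed the threshold (adjusted p = 0.0888). NOD minus C57BL/6 was -0.09 with PBS (95% confidence interval -0.40 to 0.22) and -0.08 with LPS (-0.40 to 0.24), and the interaction of strain and LPS was 0.01 (-0.41 to 0.44). By group mean the order from the top was C57BL/6 LPS, NOD LPS, C57BL/6 PBS and NOD PBS, all overlapping their neighbours, then a gap of 4.42 to NOD and C57BL/6 at steady state, which overlap each other.

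**Figure D2:**
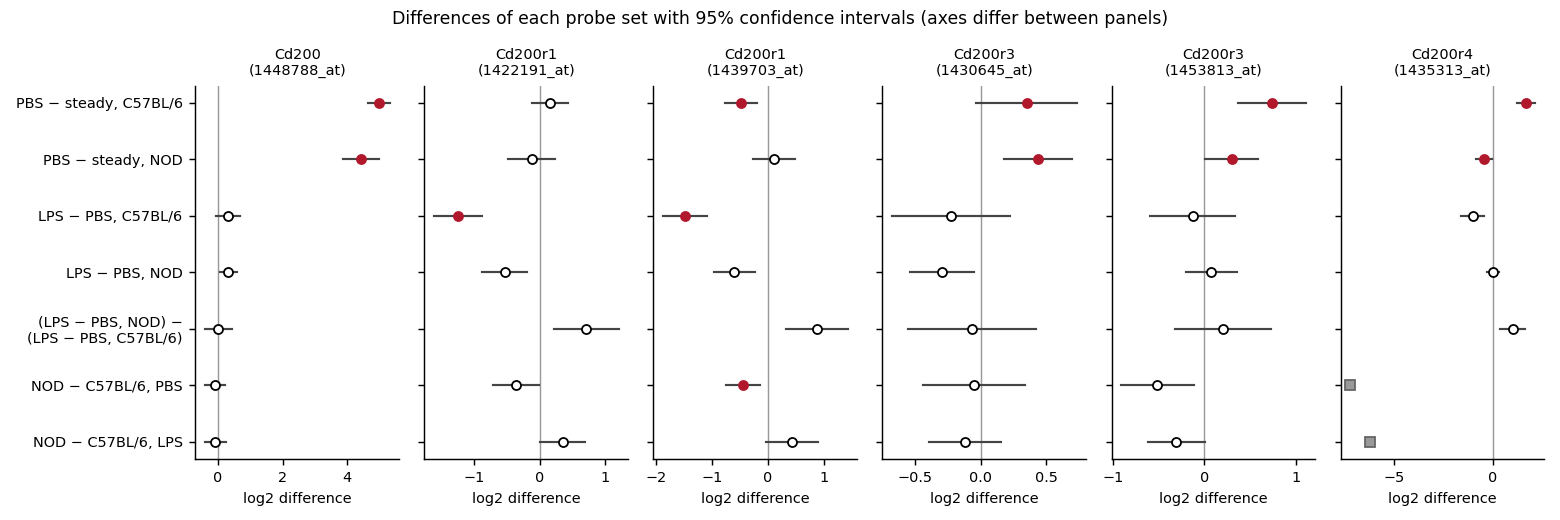
Log2 differences (x axes, which differ between panels) of the 6 probe sets in 7 comparisons (y axis), each with its 95% confidence interval from limma. Filled red points passed an adjusted p under 0.1 over all 45037 probe sets, open points did not, and grey squares are the strain differences of Cd200r4, which were not tested, like the steady state strain contrast, which is left out. Cd200 stands far to the right in both culture comparisons, and both Cd200r1 probe sets lie left of 0 for LPS against PBS in both strains.

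The inhibitory receptor gene Cd200r1 was well expressed in freshly sorted and PBS-cultured cells of both strains and fell with LPS in C57BL/6. Its brighter probe set, 1422191_at, read 10.48, 10.80, 10.85 and 10.78 in C57BL/6 (10.73 ± 0.16, SD, n = 4) and 10.61, 10.57 and 10.75 in NOD (10.64 ± 0.09, n = 3) at steady state. With PBS it read 10.97, 10.63, 11.05 and 10.90 in C57BL/6 (10.89 ± 0.18) and 10.84, 10.23, 10.29 and 10.75 in NOD (10.53 ± 0.31). These ranges overlap, and this probe set did not pass the threshold for culture in either strain (0.16, adjusted p = 0.271 in C57BL/6; -0.12, adjusted p = 0.554 in NOD). With LPS it read 9.48, 9.46 and 9.97 in C57BL/6 (9.64 ± 0.29, n = 3) and 10.06, 9.81, 9.93 and 10.17 in NOD (9.99 ± 0.16, n = 4). In each strain the LPS arrays lay below all PBS arrays. The 4 groups without LPS overlapped their neighbours in the order of means, and so did both LPS groups, with a gap between them and the rest.

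The other Cd200r1 probe set, 1439703_at, moved the same way with LPS. With PBS it read 9.21, 8.80, 9.14 and 9.09 in C57BL/6 (9.06 ± 0.18, n = 4) and 8.93, 8.47, 8.50 and 8.54 in NOD (8.61 ± 0.22, n = 4). With LPS it read 7.23, 7.56 and 7.94 in C57BL/6 (7.58 ± 0.36, n = 3) and 8.49, 7.73, 7.94 and 7.89 in NOD (8.01 ± 0.33, n = 4), without overlap in C57BL/6 and with NOD replicate 1 of the LPS group inside the NOD PBS range. In C57BL/6 LPS lowered both probe sets, with values of -1.25 for 1422191_at (SE 0.17, adjusted p = 0.0209) and -1.48 for 1439703_at (SE 0.18, adjusted p = 0.0191). These were the 2 of 6 member probe sets past the threshold there, both lower, where 1.48% of all probe sets passed it and 0.762% passed it as lower.

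In NOD the differences missed the threshold in the unpaired fit, at -0.53 (SE 0.15, adjusted p = 0.118) and -0.60 (SE 0.17, adjusted p = 0.108). With the replicate number as a block they passed it, at adjusted p = 0.0211 and 0.00899. Cd200r1 was lower with LPS in 4 of 4 NOD pairs and 3 of 3 C57BL/6 pairs with both probe sets. In the unpaired NOD fit by limma 0 of 6 member probe sets were past the threshold, where 3.76% of all probe sets passed it. An unadjusted p under 0.05 was found for 4 of the 6, and the share of all probe sets with such a p was not counted. With the block 3 passed the threshold, where 9.51% of all probe sets did. In NOD, 1422191_at also passed without NOD PBS replicate 2 (adjusted p = 0.0822) or replicate 3 (0.0955), and 1439703_at passed without NOD LPS replicate 1 (-0.76, adjusted p = 0.0215).

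Some markers of macrophages and monocytes, which carry CD200R1, were lower with LPS too. Of 9 measured, 2 fell in C57BL/6 (median -0.38), where 1.81% of genes passed the threshold, and 5 in NOD (median -0.42), where 4.40% did, and none rose. Their mean per array was 12.08 to 12.46 with PBS and 11.71 to 11.92 with LPS in C57BL/6, and 11.85 to 12.23 and 11.61 to 11.66 in NOD. C1qa, a complement gene of macrophages, gave -0.87 (adjusted p = 0.0387) in C57BL/6 and -0.88 (adjusted p = 0.00456) in NOD. The part of these cells in the Cd200r1 values was not tested.

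The strains were set against each other in their LPS response by the interaction term. For Cd200r1 it was 0.72 (SE 0.23, adjusted p = 1) and 0.88 (SE 0.26, adjusted p = 0.971), where 0.0244% of all probe sets passed the threshold. None of the 6 member probe sets passed it in limma, and 3 had an unadjusted p under 0.05, those of Cd200r1 and Cd200r4. The share of all probe sets with such a p was not counted. A difference between the strains in the size of the Cd200r1 fall was thus not shown.

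Between the strains the Cd200r1 probe sets did not read alike. At steady state 1439703_at was 9.38, 9.48, 9.47 and 9.83 in C57BL/6 (9.54 ± 0.20, n = 4) and 8.83, 8.17 and 8.52 in NOD (8.50 ± 0.33, n = 3). These ranges do not overlap and NOD minus C57BL/6 was -1.04, while 1422191_at gave -0.08 with overlapping ranges. With PBS 1439703_at was lower in NOD (-0.45, SE 0.14, adjusted p = 0.0875) and 1422191_at gave -0.36 (adjusted p = 0.257). The former call was lost when any 1 of 6 of the 8 arrays was left out (C57BL/6 replicates 1, 3 and 4 and NOD replicates 2, 3 and 4; adjusted p = 0.159 to 0.209). With LPS both probe sets had positive values, 0.43 (adjusted p = 0.305) and 0.36 (adjusted p = 0.25), and the latter passed the threshold without C57BL/6 LPS replicate 4 (0.52, adjusted p = 0.0785). In C57BL/6, 1439703_at fell from steady state to PBS culture by 0.48 on the log2 scale (adjusted p = 0.00656), whereas in NOD it gave 0.11 (adjusted p = 0.612).

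The related receptor gene Cd200r4 separated the strains on every array. At steady state its probe set 1435313_at read 8.77, 9.06, 9.17 and 9.39 in C57BL/6 (9.10 ± 0.26, n = 4) and 4.15, 3.55 and 4.30 in NOD (4.00 ± 0.40, n = 3). NOD minus C57BL/6 was -5.09, which is the value the family was chosen on. In C57BL/6 arrays Cd200r4 was brighter than 65.2 to 91.8% of all probe sets over the 3 conditions, and in NOD arrays than 0.2 to 5.6%. The deposited values carry no detection calls, so whether the NOD values lie above background was not tested, and no fold is given for this gene between strains.

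The cultured cells, on other arrays, showed the same order. With PBS Cd200r4 read 11.20, 10.93, 10.09 and 10.86 in C57BL/6 (10.77 ± 0.47, n = 4) and 3.79, 3.54, 3.45 and 3.42 in NOD (3.55 ± 0.17, n = 4). With LPS it read 10.07, 9.36 and 9.85 in C57BL/6 (9.76 ± 0.36, n = 3) and 3.87, 3.48, 3.34 and 3.51 in NOD (3.55 ± 0.22, n = 4). The strains lay more than 5 log2 units apart on all of these arrays. NOD minus C57BL/6 was -7.22 with PBS and -6.21 with LPS, and the NOD values behind them were not tested against background. They were known when the family was chosen, so they are a description with no test and no independent support for the steady state difference.

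Of the other 5 member probe sets, 1 was past the threshold between strains with PBS, the dimmer Cd200r1 probe set, which was lower in NOD, where 9.87% of all probe sets passed it and 5.09% as lower. With LPS 0 of these 5 passed it in limma, where 9.91% of all probe sets did. An unadjusted p under 0.05 was found for 1 of the 5, and the share of all probe sets with such a p was not counted.

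Within C57BL/6 Cd200r4 rose in culture, and its difference between LPS and PBS depended on the fit. From steady state to PBS culture it rose by 1.67 (SE 0.21, adjusted p = 3.03e-05), a 3.19-fold change, and no array overlapped. The LPS arrays lay below all PBS arrays, at -1.01 (SE 0.26, adjusted p = 0.146), and the value was lower in 3 of 3 pairs, with differences from -1.01 to -0.73. It missed the threshold in the unpaired fit and passed it in the fit blocked by replicate number (-0.87, adjusted p = 0.0503) or without C57BL/6 PBS replicate 3 (-1.24, adjusted p = 0.0504). The LPS interaction was 1.01 (SE 0.30, adjusted p = 1). The NOD arrays stood at the bottom with PBS and LPS alike (difference -0.0014), so this term repeats the C57BL/6 difference with its sign reversed.

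In NOD Cd200r4 stayed at the bottom of the arrays under all conditions. PBS culture against steady state gave -0.45 (SE 0.18, adjusted p = 0.0451) with overlapping ranges, and 2 NOD steady state arrays decided the call, which was lost when replicate 1 (-0.38, adjusted p = 0.149) or replicate 6 (-0.30, adjusted p = 0.213) was left out. LPS against PBS gave -0.00 (95% confidence interval -0.30 to 0.29). Values this low have no sure order. Over the 6 groups the order of means was C57BL/6 PBS, C57BL/6 LPS and C57BL/6 steady state, the last of which overlapped the LPS range, and then the 3 NOD groups, which overlapped each other.

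Cd200r3 was among the dimmest probe sets in every group. Its probe set 1430645_at ranged from 4.61 to 5.67 over the 22 arrays and 1453813_at from 3.58 to 5.07, all below the lower quartile of their array. The group means ran from 4.68 (NOD steady state) to 5.17 ± 0.40 (C57BL/6 PBS) for the former and from 3.71 (NOD steady state) to 4.52 ± 0.39 (C57BL/6 PBS) for the latter. In PBS culture 1430645_at gave 0.44 in NOD (adjusted p = 0.00766) and 0.35 in C57BL/6 (adjusted p = 0.0989), and 1453813_at gave 0.30 in NOD (adjusted p = 0.0686) and 0.74 in C57BL/6 (adjusted p = 0.00256). These passed the threshold as higher, but the C57BL/6 call of 1430645_at was lost without any 1 of 7 of the 8 arrays (all but C57BL/6 PBS replicate 3, adjusted p = 0.117 to 0.292). The NOD call of 1453813_at was lost without NOD steady state replicate 1 or 4 or NOD PBS replicate 1 or 4 (adjusted p = 0.121 to 0.212). Between strains neither probe set passed the threshold, with 1453813_at at -0.51 with PBS (adjusted p = 0.138, or 0.0705 without C57BL/6 PBS replicate 1) and -0.31 with LPS (adjusted p = 0.27). No change with LPS passed it in either strain.

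Mast cells and basophils are the cells known for Cd200r3, and their markers moved in both directions. Of 14 listed, 11 were measured, and their mean per array was 6.71 to 7.04 in C57BL/6 and 6.35 to 6.52 in NOD at steady state, 7.09 to 7.83 and 7.14 to 7.32 with PBS, and 7.51 to 7.83 and 7.26 to 7.43 with LPS. At steady state 4 of the 11 were lower in NOD and none higher, where 15.2% of genes passed the threshold. With PBS 1 was higher and 1 lower, where 10.7% of genes passed, and with LPS 1 was higher and 3 lower, where 10.6% passed. At steady state Cma1, a mast cell chymase, averaged 8.64 in C57BL/6 and 7.45 in NOD, and Mcpt4, another chymase, 7.41 and 5.89. The receptor chains that define these cells, Fcer1a and Ms4a2, averaged 4.98 and 5.09 in C57BL/6 and 4.69 and 4.96 in NOD at steady state, below the lower quartile. With culture 7 rose and 1 fell in C57BL/6 and 9 rose and 1 fell in NOD, where 76.9% and 71.6% of genes passed. Cpa3, a mast cell carboxypeptidase gene, fell in C57BL/6 (-0.52, adjusted p = 0.0841) and rose in NOD (0.57, adjusted p = 0.00403), and Kit, the stem cell factor receptor gene, rose in C57BL/6 (0.78, adjusted p = 0.00048) and fell in NOD (-0.39, adjusted p = 0.0673). Hdc, the histamine-forming enzyme, went from 6.69 to 10.97 in C57BL/6 and from 6.82 to 11.31 in NOD. The part of these cells in the Cd200r4 and Cd200r3 values was not tested.

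Which receptor a probe set reads rests on the annotation used here, and the receptor genes of this cluster are related in sequence. The study's text speaks of CD200R3, while the probe set that separated the strains is annotated here to Cd200r4. The array change that the study lists for CD200R3 at steady state has the size of that of 1435313_at (-5.09). The probe sets annotated here to Cd200r3 gave -0.14 and -0.08, so the study's array value matches the Cd200r4 probe set. The study also reports q-PCR and flow cytometry for CD200R3, and which of the related genes those assays read was not tested here. The probe sequences were not analysed here, so how well each strain's transcripts match the probes was not tested, for Cd200r4 as for the others.

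A list of inhibitory signalling genes, which includes the CD200R1 partners Dok2, Dok1 and Rasa1, was counted beside the family. The other listed genes are not taken here as partners of CD200R1. Of 8 listed (Dok1, Dok2, Rasa1, Crkl, Inpp5d, Nck1, Ptpn6 and Ptpn11), all measured, 0 were past the threshold between strains at steady state in limma, where 15.2% of 18193 genes were, and the list's median was -0.08 against 0.03 over all genes. Dok2 ranged from 12.20 to 12.35 in C57BL/6 and from 12.45 to 12.53 in NOD there (adjusted p = 0.145), without overlap. With PBS 1 was higher and none lower in NOD, Dok2, the adaptor that CD200R1 recruits (0.49, adjusted p = 0.04), where 10.7% of genes passed. With LPS Dok2 was higher (0.60, adjusted p = 0.0836) and the related Dok1 (-0.43, adjusted p = 0.0754) and the phosphatase gene Ptpn6 (-0.68, adjusted p = 0.0104) lower, where 10.6% passed. LPS lowered Dok1 (-0.42, adjusted p = 0.0841) and Ptpn6 (-0.52, adjusted p = 0.0496) in NOD, and 0 of 8 passed in C57BL/6, where 4.40% and 1.81% of genes passed.

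Culture moved this list more. In C57BL/6 2 rose and 4 fell, and in NOD 2 rose and 5 fell, where 76.9% and 71.6% of genes passed the threshold. Dok2 fell, with log2 differences of -2.96 in C57BL/6 (adjusted p = 6.34e-10) and -2.70 in NOD (adjusted p = 1.26e-08). Ptpn11, the gene of the phosphatase SHP-2, gave -1.14 (adjusted p = 5.96e-06) and -0.86 (adjusted p = 0.000482), and Rasa1, which encodes RasGAP, -0.95 (adjusted p = 9.17e-05) and -0.77 (adjusted p = 0.000711). Dok1 rose, at 1.13 (adjusted p = 5.18e-06) and 0.69 (adjusted p = 0.00104). The list's medians were -0.44 and -0.45 against 0.17 and 0.16 over all genes.

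Of 10 listed adaptors and kinases of the activating receptors, 9 were measured, and 2, 0 and 1 passed the threshold between strains at steady state, with PBS and with LPS, where 15.2%, 10.7% and 10.6% of genes did. Hcst, the gene of the adaptor DAP10 (-0.35, adjusted p = 0.0562), and Plcg2, a phospholipase gene (-0.41, adjusted p = 0.0322), were lower in NOD at steady state. Tyrobp, the gene of DAP12, was lower in NOD with LPS (-0.40, adjusted p = 0.0634), and LPS lowered Tyrobp (-0.41, adjusted p = 0.0697) and Lat2, a membrane adaptor gene (-0.55, adjusted p = 0.028), in NOD. In culture 5 rose and 3 fell in each strain, where 76.9% of genes in C57BL/6 and 71.6% in NOD passed. Lat2 was at 1.26 (adjusted p = 3.03e-06) in C57BL/6 and 1.64 (adjusted p = 1.02e-06) in NOD, Plcg2 at -1.001 (adjusted p = 3.29e-06) and -0.78 (adjusted p = 0.000439), and Syk, the kinase that docks on such adaptors, at 0.63 (adjusted p = 0.000623) and 0.56 (adjusted p = 0.00281). Among the largest were also Zap70, a kinase gene related to Syk, in C57BL/6 (0.54, adjusted p = 0.0021) and Vav1, an exchange factor gene, in NOD (0.83, adjusted p = 0.00387). Tyrobp itself fell, at -0.36 (adjusted p = 0.00555) and -0.46 (adjusted p = 0.00502). The list's medians lay between -0.21 and 0.26 over the comparisons.

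Other ligands and receptors that restrain myeloid cells were set beside the family. Of 18 listed, 16 were measured. At steady state 4 were lower in NOD and none higher, where 15.2% of genes passed the threshold, the inhibitory receptor genes Pilra (-0.95, adjusted p = 8.51e-05), Lair1 (-0.91, adjusted p = 0.000632), Fcgr2b (-0.53, adjusted p = 0.00592) and Milr1 (-0.32, adjusted p = 0.0603). With PBS 3 were higher and 4 lower, where 10.7% of genes passed, led by Fcgr2b, the inhibitory receptor for IgG (-1.27, adjusted p = 0.000364), and Siglece, a sialic acid binding lectin gene (-1.27, adjusted p = 0.0124). The next were Pdcd1lg2, the gene of PD-L2 (-0.94, adjusted p = 0.0154), and Pirb, an MHC class I receptor gene (-0.88, adjusted p = 0.00116). With LPS 2 were higher and 4 lower, where 10.6% of genes passed, led by the lectin receptor gene Clec4a2 (-1.73, adjusted p = 0.00398) and by Pirb (-1.04, adjusted p = 0.000625). Siglece was lower too (-1.04, adjusted p = 0.0101) and Cd33, another sialic acid binding lectin gene, higher (0.79, adjusted p = 0.0444).

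LPS moved these genes in both directions. In NOD 4 rose and 5 fell, where 4.40% of genes passed, with Fcgr2b at 1.73 (adjusted p = 0.000789), Siglece at 1.28 (adjusted p = 0.000812), Pilra at 1.26 (adjusted p = 0.00151) and Lair1, a collagen receptor gene, at -1.52 (adjusted p = 0.000789). In C57BL/6 1 rose and 2 fell, where 1.81% of genes passed, Pilra at 0.87 (adjusted p = 0.059), Lair1 at -1.07 (adjusted p = 0.0387) and Havcr2, which encodes TIM-3, at -0.96 (adjusted p = 0.0802). The interaction passed the threshold for Fcgr2b alone of the 16 (1.26, adjusted p = 0.0657), where 0.0220% of genes passed. In culture 8 rose and 8 fell in C57BL/6 and 6 rose and 8 fell in NOD, where 76.9% and 71.6% of genes passed. The largest change was that of Cd274, the gene of PD-L1, which rose by 4.40 (adjusted p = 3.81e-11) and 4.84 (adjusted p = 2.72e-10), beside 4.97 and 4.42 for Cd200. In C57BL/6 it was followed by Pdcd1lg2 (2.80, adjusted p = 5.54e-08), Cd33 (-2.50, adjusted p = 1.53e-06) and Lair1 (-2.28, adjusted p = 5.96e-08). In NOD it was followed by Clec4a2 (-2.95, adjusted p = 6.17e-07), Cd300lf, an inhibitory receptor gene of myeloid cells (2.54, adjusted p = 3.73e-07), and Siglece (-2.15, adjusted p = 5.68e-06).

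No measured gene around the family on chromosome 16 had a strain difference of the size of Cd200r4, on which the family was chosen. Of all 45037 probe sets, 6, 0 and 1 had a larger one in either direction at steady state, with PBS and with LPS. The lack of a match among the neighbours is therefore nothing particular to this region. Of 30 other protein-coding genes whose start lies within 1000000 bases of a member in the RefSeq table, 23 had a probe set. Between strains 4 were lower in NOD and none higher at steady state, 3 lower and 1 higher with PBS, and 4 lower and none higher with LPS, with differences from -1.34 to 0.53, where 15.2%, 10.7% and 10.6% of genes passed. Slc35a5, which lies close to Cd200r3, was lower in NOD in all 3 (-0.56, -0.82 and -0.76, adjusted p = 0.00518, 0.00173 and 0.00558). Btla, an inhibitory lymphocyte receptor gene that neighbours Cd200, was lower in NOD with PBS (-1.04, adjusted p = 0.0753) and LPS (-1.34, adjusted p = 0.0141) and gave -0.36 at steady state (adjusted p = 0.109). Cd96, a receptor gene of T and NK cells, was lower in all 3 too (-0.37, -1.14 and -0.93, adjusted p = 0.0704, 0.00836 and 0.1 as rounded). With PBS the marker mean of B cells was lower in NOD too (8.49 to 9.45 against 9.49 to 10.35 in C57BL/6). So was that of NK and innate lymphoid cells (9.05 to 9.56 against 9.76 to 10.07). The B cell ranges of NOD and C57BL/6 overlapped with LPS (8.903 to 10.453 and 9.968 to 10.762) and at steady state (8.622 to 9.645 and 9.169 to 9.694). Those of NK and innate lymphoid cells did not overlap there and were lower in NOD. The part of these cells in the neighbours' values was not tested.

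**Figure D3:**
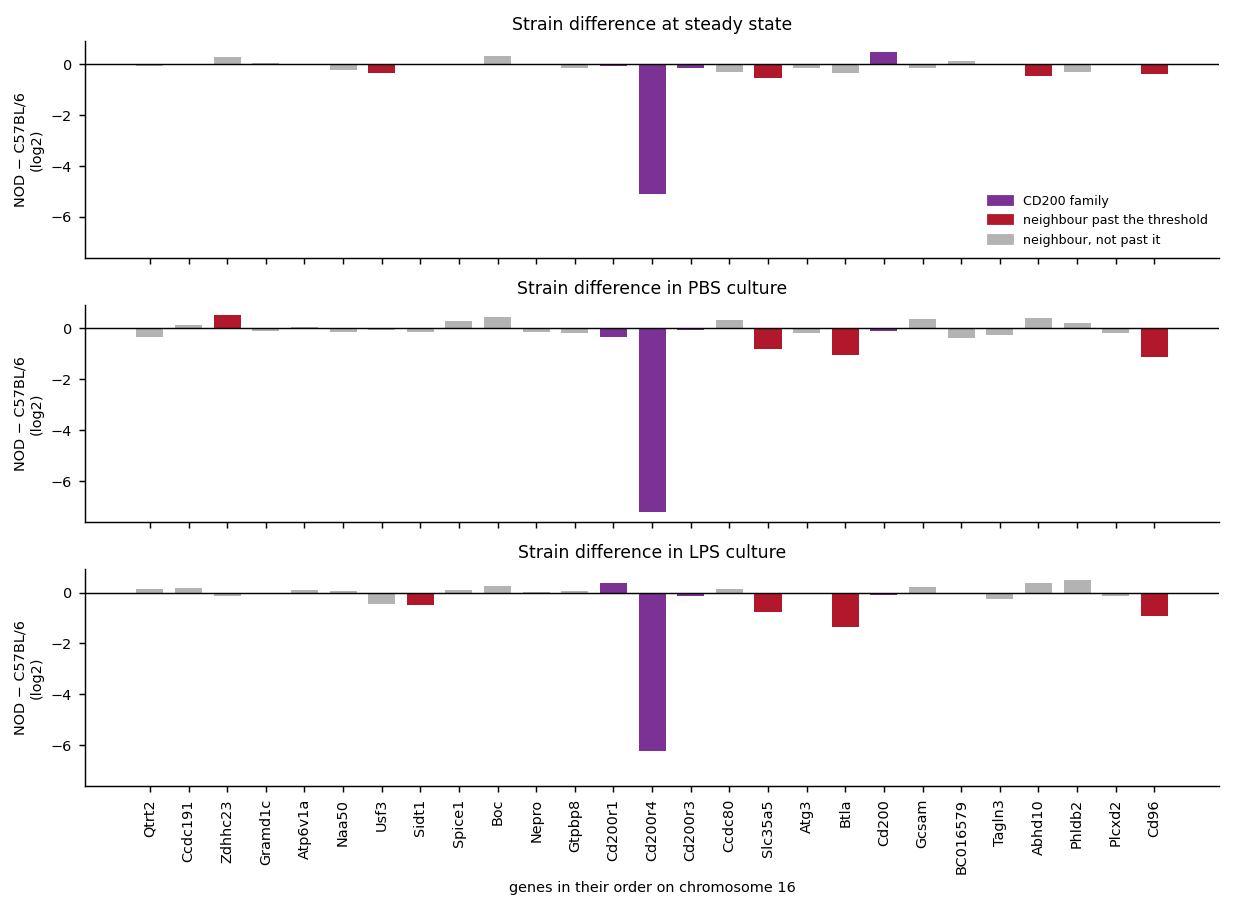
Difference between NOD and C57BL/6 (y axis, log2) of the members and of 23 neighbouring genes in their order on chromosome 16 (x axis) at steady state, with PBS and with LPS. Purple bars are the members, each by its brightest probe set, red bars are neighbours past an adjusted p under 0.1 and grey bars the others. Cd200r4, on whose strain difference the family was chosen, reaches -5.09, -7.22 and -6.21, and no neighbour goes below -1.34.

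The 5 genes most like each member over the 22 arrays were found by Pearson correlation, which here describes groups as much as arrays. Cd200 was matched by Procr, the endothelial protein C receptor gene (r = 0.99), Txn1, a thioredoxin gene, Car13, a carbonic anhydrase gene, Il15ra, an IL-15 receptor chain gene, and Plagl1, a zinc finger gene (r = 0.99 for each). Procr averaged 7.94 and 8.20 at steady state in C57BL/6 and NOD and 13.01 to 13.63 in the cultured groups, and Il15ra 8.46 and 8.47 against 12.18 to 12.35. Txn1 had the same shape over a narrow span, from 13.39 to 14.36.

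Cd200r1 was matched by Eya4 (r = 0.93), the kinase gene Vrk2 (0.92), Tlr4, the gene of the LPS receptor itself (0.91), Tlr13, another Toll-like receptor gene (0.91), and Zbtb20 (0.89). Tlr4 averaged 11.02 and 10.77 with PBS and 10.10 and 10.16 with LPS in C57BL/6 and NOD. Cd200r4 was matched by Trim12c (r = 0.99), Wdr20 (0.98), Trim12a (0.98), Zfp991 (0.98) and Uqcr10 (0.98), each higher in C57BL/6 than in NOD in all 3 conditions. Trim12c averaged 9.04, 10.46 and 9.98 in C57BL/6 against 3.99, 4.31 and 4.04 in NOD at steady state, with PBS and with LPS. The group means of Cd200r3 spanned less than 1 log2 unit, and no genes were matched to it.

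**Figure D4:**
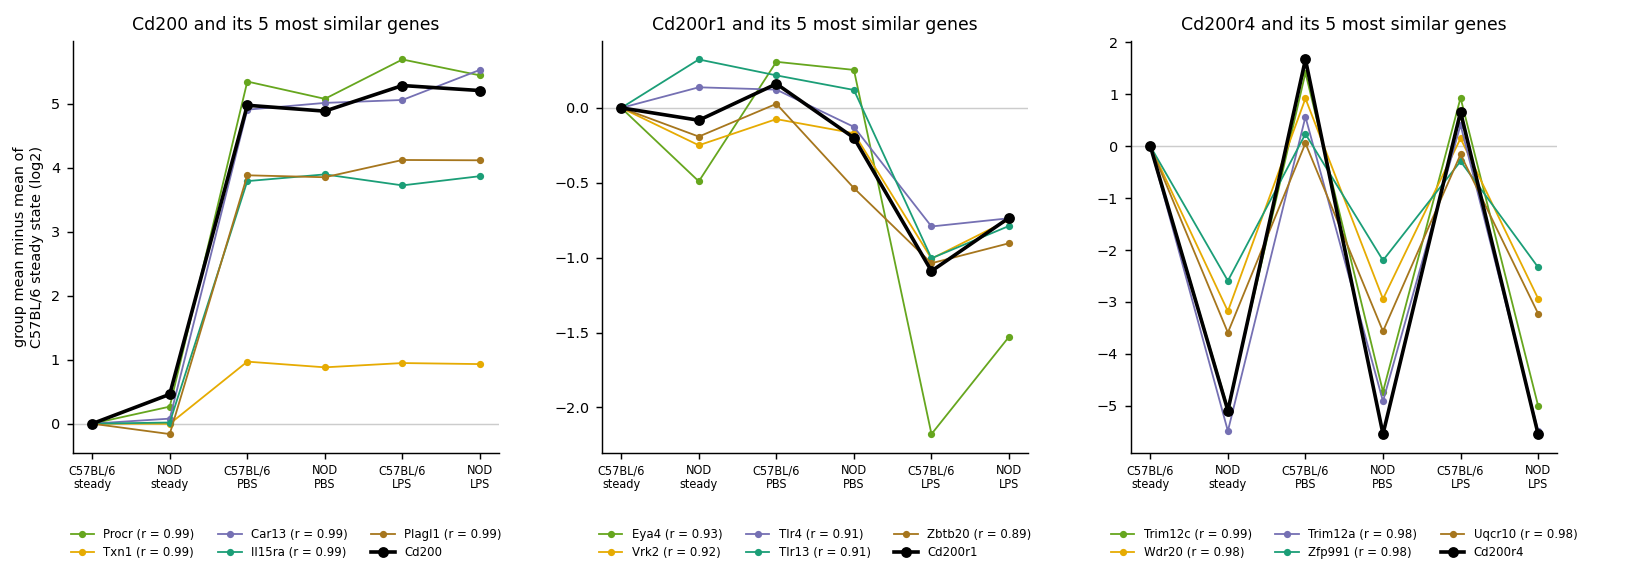
Group means minus the C57BL/6 steady state mean (y axis, log2, axes differ) for Cd200, Cd200r1 and Cd200r4 (black) and the 5 genes with the highest Pearson r over 22 arrays (colours), in the 6 groups (x axis). Cd200 and its matches step up in culture, Cd200r1 and its matches drop with LPS, and Cd200r4 and its matches alternate with strain.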

How the data were processed

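RNA of sorted pancreatic CD11c+CD8α- DCs was measured on 22 arrays in 6 groups, taken from the sample titles. The authors normalised the arrays with RMA in BRB-ArrayTools (release: not given in the sources used here), and the deposited values are log2 expression per probe set. RMA draws all arrays to 1 distribution, so differences are relative to it. The table holds 45101 probe sets, and 45037 were tested after removal of 64 AFFX controls. Of these, 34945 name 1 gene, 932 several and 9160 none, and gene names were brought up to date through the Entrez number for 99.4% of the former.

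The fits used limma 3.58.1 in R 4.3.3, each on the arrays of the groups compared, unpaired, with a Benjamini-Hochberg adjusted p under 0.1 as the threshold. The methods' multivariate permutation test was not run. The PBS arrays of a strain serve the culture, LPS and strain comparisons alike, so these share samples. SD is the spread between arrays and SE the moderated standard error. Replicates are separate pools, and the smallest groups hold 3. No p is given for the strain difference of Cd200r4, on which the family was chosen. All member probe sets were named. Of each list, up to 4 genes with the largest change past the threshold in a comparison were named, and Tyrobp, the markers given and Dok2 at steady state were added after their values were seen. Neighbours with a change past the threshold of at least 1 log2 unit between strains and the 5 genes most like each member were also named, and Slc35a5 was added after its values were seen. A gene stands by its brightest probe set. The members and lists were chosen with earlier results of these data known. The code was tested on simulated data.

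Residuals of same-numbered arrays were correlated to check for pairing. The correlations were 0.241 to 0.487 (LPS and PBS, NOD), 0.259 to 0.423 (C57BL/6), and 0.109 to 0.433, 0.137 to 0.32 and 0.114 to 0.345 between strains at steady state, with PBS and with LPS, so blocked fits took equal numbers for pairs. The culture comparisons share only 2 numbers in a strain, with correlations of 0.277 and 0.1 (NOD) and 0.177 and -0.033 (C57BL/6), and were not taken as paired. Alternatives were an adjusted p under 0.05, no probe sets from the dimmer 50%, a single fit to all 22 arrays, array medians set equal, a second quantile normalisation, an intensity trend with a robust spread, the replicate block, and each array left out.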

Additional observations from a re-analysis of the deposited data

Results flagged for a closer look

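The 6 probe sets in the groups of 4 arrays make 24 sets of values, and 1 of these held an array far from the other ones. The Cd200r1 probe set 1439703_at read 8.93 in NOD PBS replicate 1 against 8.47 to 8.54 in the other NOD PBS arrays, a gap of 0.858 of the group's range. Chance alone does this in about 1 of 20 such sets. The brighter Cd200r1 probe set read 10.84 on that array and 10.75 in NOD PBS replicate 4.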

How the results depend on the processing

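Of 591 alternative values of single member probe sets, 522 kept their direction and their side of the threshold, 26 lost the threshold, 22 gained it and 21 changed sign. All 36 group levels moved by less than 1 SD when arrays were centred on their medians. The causes were not tested unless stated. The full fits count Cd200r4, while leaving out the dimmer 50% of probe sets removes Cd200r4 and both Cd200r3 probe sets from the fit. Between strains that left 1 member probe set past the threshold with PBS and 0 with LPS, where 4032 and 4368 of 22518 probe sets passed. For culture it left 1 in NOD and 2 in C57BL/6, where 16699 and 17929 passed. For LPS in NOD 2 passed, where 1996 of all did. At an adjusted p under 0.05 none of the member probe sets other than Cd200r4 passed between strains with PBS, where 3063 of 45037 probe sets did. For LPS in NOD, 2 passed in 1 fit of all 22 arrays and with an intensity trend, and 3 with the replicate block. Of all 45037 probe sets, 2676, 1958 and 4282 passed in these settings. The block left 2 for culture in NOD, where 24083 of all probe sets passed. It ran over 2 shared numbers that were not taken as pairs, and gave Cd200r1 (1422191_at) 0.20 there in place of -0.12. With the block over those numbers Cd200r1 (1439703_at) lost its culture call in C57BL/6 (adjusted p = 0.202). In the strain comparisons and the interaction it changed no member's call. Each array left out in turn gave 1 to 2 member probe sets between strains with PBS, where 3137 to 3819 of all probe sets passed. With LPS it gave 1 to 2, where 2837 to 4336 passed. For LPS in NOD it gave 0 to 1, where 911 to 1672 passed, and for culture in NOD 2 to 4, where 26325 to 29898 passed. The strain counts with an array left out include Cd200r4, on whose strain difference the family was chosen, so they lend that difference no support.

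The sign changes were in values near 0. With arrays left out, the strain difference of Cd200 ranged from -0.1664 to 0.0146 with PBS and -0.1917 to 0.0545 with LPS and its interaction from -0.0998 to 0.1464. That of Cd200r3 (1430645_at) ranged from -0.2132 to 0.1142 with PBS and its interaction from -0.2349 to 0.0924. LPS gave -0.0083 to 0.1278 in NOD and -0.2523 to 0.0557 in C57BL/6 for Cd200r3 (1453813_at). It gave -0.1063 to 0.0785 in NOD for Cd200r4, and 0.004 with centred arrays. Culture in NOD gave -0.0625 to 0.269 for Cd200r1 (1439703_at).

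Counts over all probe sets also depended on the setting. LPS in C57BL/6 gave 665 calls, 84 without C57BL/6 PBS replicate 1 and 2030 in 1 fit of all arrays. LPS in NOD gave 1693, from 911 without NOD PBS replicate 4 to 4282 with the block. The strain comparisons gave 4447 (3063 at an adjusted p under 0.05 to 6826 with the block) with PBS and 4463 (2837 without C57BL/6 LPS replicate 3 to 6083 in 1 fit of all arrays) with LPS, the interaction 11 (5 to 20), and culture 30222 and 32735 (16699 and 17929 without the dimmer probe sets). The number of arrays and the lack of detection calls limit what can be said of the dim probe sets.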
